A study of Mus musculus with 11 samples.

Results

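The genes described here encode the machinery of oxidative phosphorylation in mouse mitochondria. They were chosen by symbol alone: names starting with Nduf, Uqcr or Atp5, the Sdh genes, the Cox genes of subunits 4 to 8, and the cytochrome genes Cycs and Cyc1. The rule found 63 of the 7114 genes measured. They comprise 22 subunits of complex I, 3 of complex II, 6 of complex III, cytochrome c itself, 10 of complex IV and 16 of complex V, which make 58 genes. The remaining 5 are 4 assembly factors of complex I (Ndufaf1, Ndufaf3, Ndufaf4 and Ndufaf6) and a probe annotated to the pseudogene symbol Ndufs5-ps, and these were counted apart. A RefSeq gene table of the mouse lists 98 protein-coding genes under the same rule, of which 62 were measured. Cox4i2, Cox5a, Cox5b, Cox6a2, Cox7a1, Cox8b, Cox8c, Atp5g2, Sdhc and Uqcrfs1 were among those not analysed here.

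RNA of 11 mouse samples was hybridised to 2-colour cDNA arrays, with 1 array per sample and no replicates, in a study of RAS isoforms in melanocytes by its title. Every sample was labelled with Cy3 and set against the same mouse embryo RNA, labelled with Cy5. The labels name the organs Heart, Kidney, Liver and Lung; the lines NRAS_MEL, HRAS_MEL, D6_MEL and Melan A; the cells VA_475; and VA_MEF and 3T3. The series title gives the reading of MEL as melanocyte, Melan A is known as a line of immortal mouse melanocytes, and 3T3 and MEF are known as fibroblasts. NRAS_MEL shares its description code with D6_MEL and carries the added word Nras, HRAS_MEL has a code of its own, and the labels give no strain, age, passage, treatment or allele for any sample. The cell type of VA_475 is not in the labels. Each array name below is a label and nothing more.

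The respiratory chain passes electrons from NADH (at complex I) and from succinate (at complex II) through complex III and cytochrome c to oxygen at complex IV. The proton gradient that complexes I, III and IV build drives ATP synthesis by complex V. Heart muscle and kidney tubule are known for dense mitochondria and high rates of respiration, while many cultured lines lean more on glycolysis. All the genes measured here lie in the nuclear genome, since the few subunits encoded in mitochondrial DNA carry other symbols.

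Values are log2 ratios of own RNA over the reference, averaged over a gene's probes after the array median was subtracted. A value of 1 means 2-fold more than in the reference relative to the array's median probe, if the deposited logarithm has base 2, as was assumed. The direction is likely but not settled by the sources. Sample titles put the label before the reference, as in 3T3 / Reference, which can be read as own RNA over reference for the deposited values. The deposited signs were turned against that reading because markers of single organs then stand high on 1 array and low on the other 10. Albumin (Alb) shows this, at 2.54 in Lung and between -8.22 and -6.21 on the other arrays. With the deposited sign kept, every level and difference below would change sign. In RNA of a whole sample, fewer cells of a type and less RNA per cell cannot be told apart.

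Marker genes went against the labels Heart, Liver, Lung and Melan A, and several went against VA_MEF, a label read as fibroblasts. Albumin, transthyretin (Ttr, 3.33) and Apoa1 (1.89), all 3 measured genes of the liver list, were highest in Lung. The surfactant gene Sftpd, the only lung marker measured, stood at 5.75 in Liver and below -1 elsewhere. The heart list had 2 measured genes of 17, and both were highest in Melan A: Nppb at 4.42 and the fatty acid binding protein Fabp3 at 3.13, against -0.011 and -1.90 in Heart. Mlph, a melanosome transport gene, stood at 2.94 in Heart, 3.06 in VA_MEF and 3.18 in D6_MEL, but at -0.059 in Melan A. Of the kidney list 2 of 13 genes were measured, and both were highest in Kidney, Miox at 6.0 and Pdzk1 at 4.17. Pdzk1 also stood at 1.48 in Lung. Of the melanocyte list 5 of 15 genes were measured, and their median was -0.50 in NRAS_MEL, -0.99 in HRAS_MEL, -1.17 in Melan A, -0.59 in D6_MEL, -0.72 in Heart and 0.71 in VA_MEF. It was 0.36 in Liver, -0.13 in Kidney, -0.48 in Lung, -0.93 in 3T3 and -1.20 in VA_475, so the list did not set the MEL arrays apart. Beside Mlph, Rab38 was high in VA_MEF at 3.40 and stood at 0.31 in Heart, while Kit (-1.77 in Heart and -1.63 in VA_MEF) and Ednrb (-3.41 in Heart and -3.48 in VA_MEF) were low in both. Rab27a stood at -0.72 in Heart, -0.59 in D6_MEL and 0.71 in VA_MEF. Kit (0.41), Ednrb (0.36) and Rab27a (1.16) were highest in Liver. Mitf, Tyr, Tyrp1, Dct, Pmel and Mlana were not analysed here, so the pigment cell identity of the lines was not tested. No array was moved to another group, and the tests that hold Heart and Melan A are given with and without them.

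The 58 genes stood far above the reference in the array labelled Melan A, above it in Kidney and Lung, and below it on the other 8 arrays. Their median was 2.11 in Melan A, 0.80 in Kidney, 0.49 in Lung and -0.13 in Liver. It was -0.25 in NRAS_MEL, -0.42 in VA_475, -0.48 in HRAS_MEL, -0.53 in Heart, -0.54 in VA_MEF, -0.54 in 3T3 and -0.60 in D6_MEL. The median of all genes lay between -0.09 and -0.03 on every array. Melan A held the highest value of 53 of the 58 genes, and Kidney the second highest of 43.

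**Figure D1:**
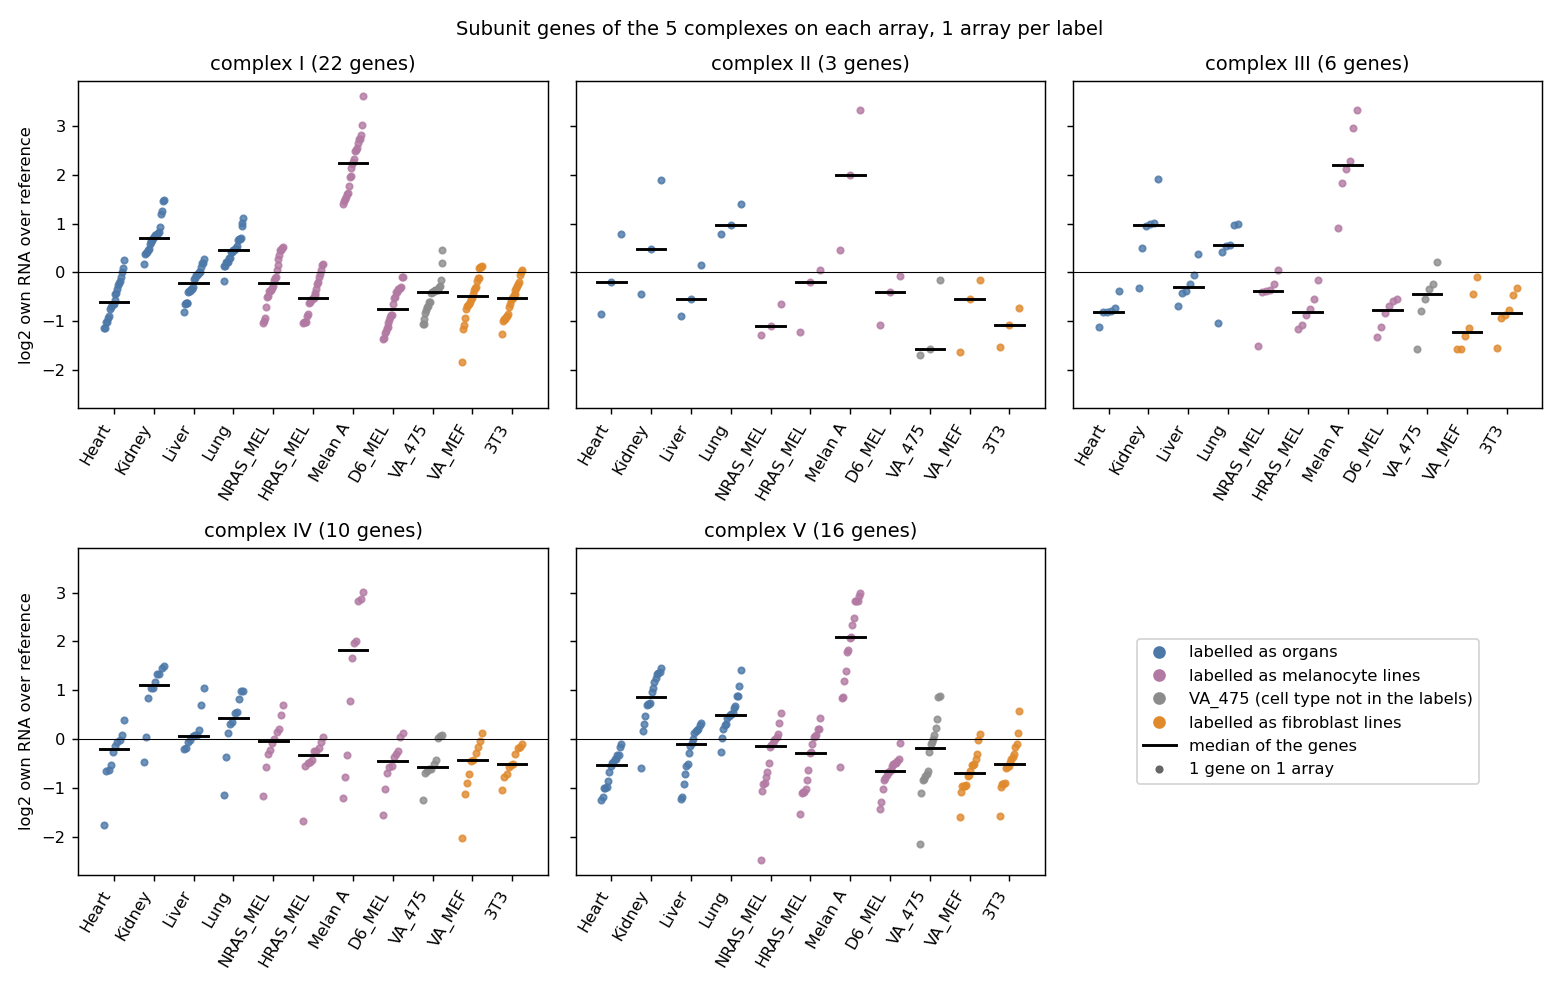
Levels of the subunit genes of the 5 complexes on each array, as log2 own RNA over reference, with 1 point per gene and a bar at the median of the genes. In all 5 panels the array labelled Melan A has the highest median, between 1.82 and 2.23, and the 3 MEL arrays have medians below 0.

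Neighbours at the top of this order were separated gene by gene, and those at the bottom were not. Melan A exceeded Kidney in 55 of 58 genes (median difference 1.35, SD over genes 0.80), Kidney exceeded Lung in 47 (0.38, SD 0.44), and Lung exceeded Liver in 54 (0.69, SD 0.58). Liver exceeded NRAS_MEL in 32 of 58 genes, with a median difference of 0.091 that is small beside an SD of 0.49. NRAS_MEL exceeded VA_475 in 40 genes (0.083, SD 0.38). From VA_475 down to D6_MEL each array exceeded the next in 29 to 36 genes, with median differences of -0.0022 to 0.14 beside SDs of 0.42 to 0.52. Genes are not replicates of an array, so these counts describe 11 hybridisations and carry no test.

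Counts at a level of at least 1 gave the same picture for Melan A and Kidney, but not for every array. In Melan A 49 of the 58 genes were at least 1 above the array median, where 10.8% of all genes were. In Kidney 22 were, beside 8.81% of all genes. The count in Lung was 5 of 58, beside 9.6%, and in Liver 1 of 58, beside 6.12%, so neither exceeded the background by this measure. Genes at least 1 below the array median numbered 7 in NRAS_MEL (11.4% of all genes), 14 in HRAS_MEL (10.4%), 15 in D6_MEL (10.1%) and 10 in Heart (11.1%). They numbered 8 in VA_475 (13.3%), 12 in VA_MEF (14.9%) and 6 in 3T3 (10.1%). The counts were highest in D6_MEL and HRAS_MEL, and those of NRAS_MEL, VA_475 and 3T3 lay near the share over all genes. The count was lowest in 3T3, although its median was among the lowest.

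Complex I, the entry point for electrons from NADH, was high as a whole in Melan A. All 22 subunits stood at least 1 above that array's median, from 1.41 for Ndufa7 to 3.61 for Ndufa13. Median levels of the 22 were -0.60 in Heart, 0.72 in Kidney, -0.22 in Liver, 0.46 in Lung, -0.21 in NRAS_MEL, -0.53 in HRAS_MEL, 2.23 in Melan A, -0.76 in D6_MEL, -0.40 in VA_475, -0.48 in VA_MEF and -0.52 in 3T3. Kidney was above 0 for all 22 and Lung for 21, against 8 in NRAS_MEL, 3 in HRAS_MEL and 0 in D6_MEL.

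The core subunits of complex I include those that carry its flavin and iron-sulphur clusters. Ndufv1, which binds NADH and the flavin, stood at -1.13 in Heart, 0.82 in Kidney, -0.62 in Liver, 0.49 in Lung, -0.71 in NRAS_MEL, -1.01 in HRAS_MEL, 2.74 in Melan A, -1.35 in D6_MEL, -0.43 in VA_475, -1.17 in VA_MEF and -0.65 in 3T3. Its partner Ndufv2 stood at -1.15 in Heart, 0.42 in Kidney, -0.63 in Liver, 0.14 in Lung, -0.93 in NRAS_MEL, -0.84 in HRAS_MEL, 2.31 in Melan A, -1.34 in D6_MEL, -0.95 in VA_475, -0.64 in VA_MEF and -0.99 in 3T3. Both were negative on the 8 arrays other than Melan A, Kidney and Lung, and lowest in D6_MEL. The large iron-sulphur subunit Ndufs1 had levels of -0.21 in Heart, 0.73 in Kidney, -0.81 in Liver, -0.17 in Lung, -0.50 in NRAS_MEL, -0.42 in HRAS_MEL, 2.14 in Melan A, -0.39 in D6_MEL, -0.36 in VA_475, 0.12 in VA_MEF and -0.43 in 3T3. For this gene Liver, not a line, was the lowest array, and VA_MEF was above the reference.

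Ndufs3, part of the module that passes electrons to ubiquinone, had levels of -1.02 in Heart, 0.79 in Kidney, -0.63 in Liver, 0.46 in Lung, -0.99 in NRAS_MEL, -1.02 in HRAS_MEL, 2.22 in Melan A, -1.20 in D6_MEL, -1.06 in VA_475, -0.66 in VA_MEF and -0.89 in 3T3. The subunit Ndufs7, which holds the last iron-sulphur cluster before ubiquinone, stood at -0.74 in Heart, 0.67 in Kidney, -0.053 in Liver, 0.20 in Lung, -1.03 in NRAS_MEL, -1.03 in HRAS_MEL, 2.55 in Melan A, -1.13 in D6_MEL, -1.06 in VA_475, -1.84 in VA_MEF and -1.26 in 3T3. Its neighbour in the same module, Ndufs8, had levels of -0.45 in Heart, 1.19 in Kidney, 0.11 in Liver, 0.67 in Lung, -0.085 in NRAS_MEL, -0.099 in HRAS_MEL, 2.65 in Melan A, -0.65 in D6_MEL, -0.15 in VA_475, -0.92 in VA_MEF and 0.055 in 3T3. Ndufs3 and Ndufs7 were at -0.66 or lower in Heart and in the 6 line or cell arrays other than Melan A, and Ndufs7 in VA_MEF was the lowest value of any complex I gene. Ndufs7 had the widest range of complex I, 4.39, and Ndufa7 the narrowest, 1.70, from -0.29 in VA_475 to 1.41 in Melan A.

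The 16 accessory subunits of complex I are Ndufa7, Ndufa8, Ndufa10, Ndufa12, Ndufa13, Ndufb5, Ndufb6, Ndufb7, Ndufb9, Ndufb10, Ndufb11, Ndufc1, Ndufc2, Ndufs4, Ndufs6 and Ndufv3. Each had its highest level in Melan A. The largest of these after Ndufa13 were Ndufs6 at 3.01, Ndufb9 at 2.82 and Ndufb10 at 2.73. In D6_MEL the lowest were Ndufb11 at -1.25, Ndufb10 at -1.11 and Ndufb5 at -1.04. NRAS_MEL stood highest for Ndufc1 (0.51), Ndufa7 (0.50), Ndufa12 (0.47) and Ndufa13 (0.47), while Ndufa12 stood at -0.52 in D6_MEL. Ndufs5-ps stood at 2.0 in Melan A, 0.19 in NRAS_MEL and -1.21 in HRAS_MEL. Whether its probe reads the pseudogene or the parent gene was not tested.

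The 4 assembly factors of complex I, which help to build it and are not part of the finished enzyme, had a median of 0.80 in Melan A, 0.67 in Lung and 0.35 in Kidney. It was 0.25 in NRAS_MEL, -0.40 in HRAS_MEL and -0.22 in D6_MEL. Ndufaf4 stood at 0.034 in Heart, 0.39 in Kidney, 0.36 in Liver, 0.73 in Lung, 0.22 in NRAS_MEL, -1.67 in HRAS_MEL, 0.72 in Melan A, 1.29 in D6_MEL, 0.10 in VA_475, 0.36 in VA_MEF and -0.90 in 3T3. Its highest array was D6_MEL and its lowest HRAS_MEL, a span of 2.95 within the MEL arrays. Ndufaf6 had the narrowest range of all 63 genes, 1.0, with its top in 3T3 at 0.93. Ndufaf1 at 1.23 and Ndufaf3 at 0.88 were highest in Melan A.

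Complex II oxidises succinate and is shared with the tricarboxylic acid cycle. Its flavoprotein Sdha stood at -0.20 in Heart, 1.89 in Kidney, -0.54 in Liver, 1.40 in Lung, -1.09 in NRAS_MEL, 0.057 in HRAS_MEL, 3.33 in Melan A, -0.40 in D6_MEL, -1.68 in VA_475, -0.54 in VA_MEF and -0.72 in 3T3. Melan A, Kidney and Lung were far above the rest, and VA_475 and NRAS_MEL were the lowest. The 2 probes of Sdha had a median gap of 0.37 but stood at -0.33 and -1.84 in NRAS_MEL. The iron-sulphur subunit Sdhb had levels of 0.78 in Heart, -0.44 in Kidney, 0.16 in Liver, 0.97 in Lung, -0.64 in NRAS_MEL, -0.20 in HRAS_MEL, 0.46 in Melan A, -0.080 in D6_MEL, -0.16 in VA_475, -0.16 in VA_MEF and -1.52 in 3T3. It was highest in Lung and Heart and lowest in 3T3, and was the only complex II gene not highest in Melan A. Sdhd, which anchors the enzyme in the membrane, had levels of -0.84 in Heart, 0.49 in Kidney, -0.90 in Liver, 0.79 in Lung, -1.28 in NRAS_MEL, -1.23 in HRAS_MEL, 1.99 in Melan A, -1.08 in D6_MEL, -1.57 in VA_475, -1.62 in VA_MEF and -1.08 in 3T3. That gene lay at -0.84 or lower on all 8 arrays other than Melan A, Lung and Kidney.

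Complex III hands electrons to cytochrome c, and its 6 genes had medians of -0.80 in Heart, 0.96 in Kidney, -0.30 in Liver, 0.56 in Lung, -0.38 in NRAS_MEL, -0.81 in HRAS_MEL, 2.20 in Melan A, -0.76 in D6_MEL, -0.43 in VA_475, -1.23 in VA_MEF and -0.82 in 3T3. The core protein Uqcrc2 stood at -0.80 in Heart, 1.91 in Kidney, -0.70 in Liver, 0.98 in Lung, -1.51 in NRAS_MEL, -1.07 in HRAS_MEL, 3.34 in Melan A, -0.69 in D6_MEL, -1.57 in VA_475, -1.15 in VA_MEF and -1.54 in 3T3. It had the widest range of complex III, 4.90, and its 2 probes correlated at 0.99 over the arrays. The haem subunit Cyc1 had levels of -0.81 in Heart, 0.95 in Kidney, -0.38 in Liver, 0.42 in Lung, -0.38 in NRAS_MEL, -1.16 in HRAS_MEL, 2.96 in Melan A, -0.82 in D6_MEL, -0.54 in VA_475, -0.44 in VA_MEF and -0.78 in 3T3. For both genes the 3 arrays above 0 were Melan A, Kidney and Lung.

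Uqcrc1, the other core protein, had an average of -1.11 in Heart, -0.31 in Kidney, -0.23 in Liver, -1.03 in Lung, -0.37 in NRAS_MEL, -0.88 in HRAS_MEL, 0.92 in Melan A, -1.31 in D6_MEL, -0.80 in VA_475, -1.31 in VA_MEF and -0.93 in 3T3. Its 2 probes disagreed: the first stood at 2.23 in Melan A, 1.03 in Kidney and 0.16 in Lung, and the second at -0.40 in Melan A, -1.65 in Kidney and -2.21 in Lung, with no value on 4 arrays (HRAS_MEL, Heart, VA_MEF and 3T3). The first probe followed the other subunits, and the narrow range of Uqcrc1, 2.23, the smallest in its complex, rests on the average of both. Uqcrb at 2.28, Uqcrh at 2.12 and Uqcr11 at 1.83, smaller subunits, were also highest in Melan A. In VA_MEF the last 2 stood at -1.57 and -1.57, their lowest values.

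Cytochrome c (Cycs), the mobile carrier between complexes III and IV that also triggers the apoptosome once released, had levels of -0.16 in Heart, 1.01 in Kidney, -0.47 in Liver, 0.49 in Lung, -0.27 in NRAS_MEL, -1.34 in HRAS_MEL, 2.81 in Melan A, -0.15 in D6_MEL, 0.27 in VA_475, 1.22 in VA_MEF and -0.32 in 3T3. In the mean of its 2 probes VA_MEF was second to Melan A, and HRAS_MEL was the lowest array. Both probes put HRAS_MEL lowest, at -0.95 and -1.72. VA_MEF stood above Kidney by the second probe alone, at 1.79 in VA_MEF and 1.17 in Kidney, while the first gave 0.66 in VA_MEF and 0.86 in Kidney. No other of the 58 genes was at least 1 above the array median in VA_MEF.

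Complex IV, cytochrome c oxidase, was divided. Medians of its 10 genes were -0.20 in Heart, 1.11 in Kidney, 0.067 in Liver, 0.44 in Lung, -0.036 in NRAS_MEL, -0.33 in HRAS_MEL, 1.82 in Melan A, -0.46 in D6_MEL, -0.56 in VA_475, -0.43 in VA_MEF and -0.52 in 3T3. Several of its subunits come in alternative forms encoded by different genes, and heart muscle is known to replace the common forms of subunits 6a, 7a and 8 with muscle forms. The muscle genes Cox6a2, Cox7a1 and Cox8b were not analysed here, so the plot of isoform-bearing subunits holds the common forms.

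Cox4i1, the common form of the regulatory subunit 4, stood at -0.65 in Heart, 1.34 in Kidney, -0.050 in Liver, 0.30 in Lung, -0.58 in NRAS_MEL, -0.24 in HRAS_MEL, 3.01 in Melan A, -1.02 in D6_MEL, -0.64 in VA_475, -0.42 in VA_MEF and -0.57 in 3T3. It had the widest range of complex IV, 4.03, and its 3 probes lay between 2.69 and 3.19 in Melan A. Cox6b1, the body-wide form of subunit 6b, had levels of -0.056 in Heart, 1.16 in Kidney, 0.088 in Liver, 0.56 in Lung, -0.069 in NRAS_MEL, -0.54 in HRAS_MEL, 2.83 in Melan A, -0.25 in D6_MEL, -0.62 in VA_475, -1.12 in VA_MEF and -0.71 in 3T3. Cox7a2, the common form of subunit 7a, had levels of -0.52 in Heart, 1.05 in Kidney, 0.077 in Liver, 0.34 in Lung, -0.22 in NRAS_MEL, -0.47 in HRAS_MEL, 1.66 in Melan A, -0.69 in D6_MEL, -0.70 in VA_475, -0.90 in VA_MEF and -0.53 in 3T3. All 3 were highest in Melan A and second in Kidney, though the lead of Melan A over Kidney was 1.67 for Cox4i1 and 1.66 for Cox6b1 but 0.61 for Cox7a2.

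The common forms of subunits 6a and 8 did not share that pattern. Cox6a1 stood at 0.082 in Heart, 1.46 in Kidney, 0.19 in Liver, 0.83 in Lung, 0.20 in NRAS_MEL, -0.42 in HRAS_MEL, -0.33 in Melan A, -0.31 in D6_MEL, -0.61 in VA_475, -0.70 in VA_MEF and -0.50 in 3T3. Cox8a stood at -0.63 in Heart, 1.5 in Kidney, -0.20 in Liver, 0.12 in Lung, -0.29 in NRAS_MEL, -0.18 in HRAS_MEL, -0.78 in Melan A, -0.55 in D6_MEL, -0.44 in VA_475, -0.44 in VA_MEF and -0.19 in 3T3. Both were highest in Kidney, and in Melan A they lay below the reference, where Cox8a had its lowest value of any array. Melan A minus Kidney was -1.79 for Cox6a1 and -2.28 for Cox8a, and these were the only 2 of the 58 genes at least 1 lower, beside 9.58% of all genes, while 42 of 58 were at least 1 higher, beside 8.47%. Each of the 2 genes had 1 probe, so no second probe bears on them.

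**Figure D2:**
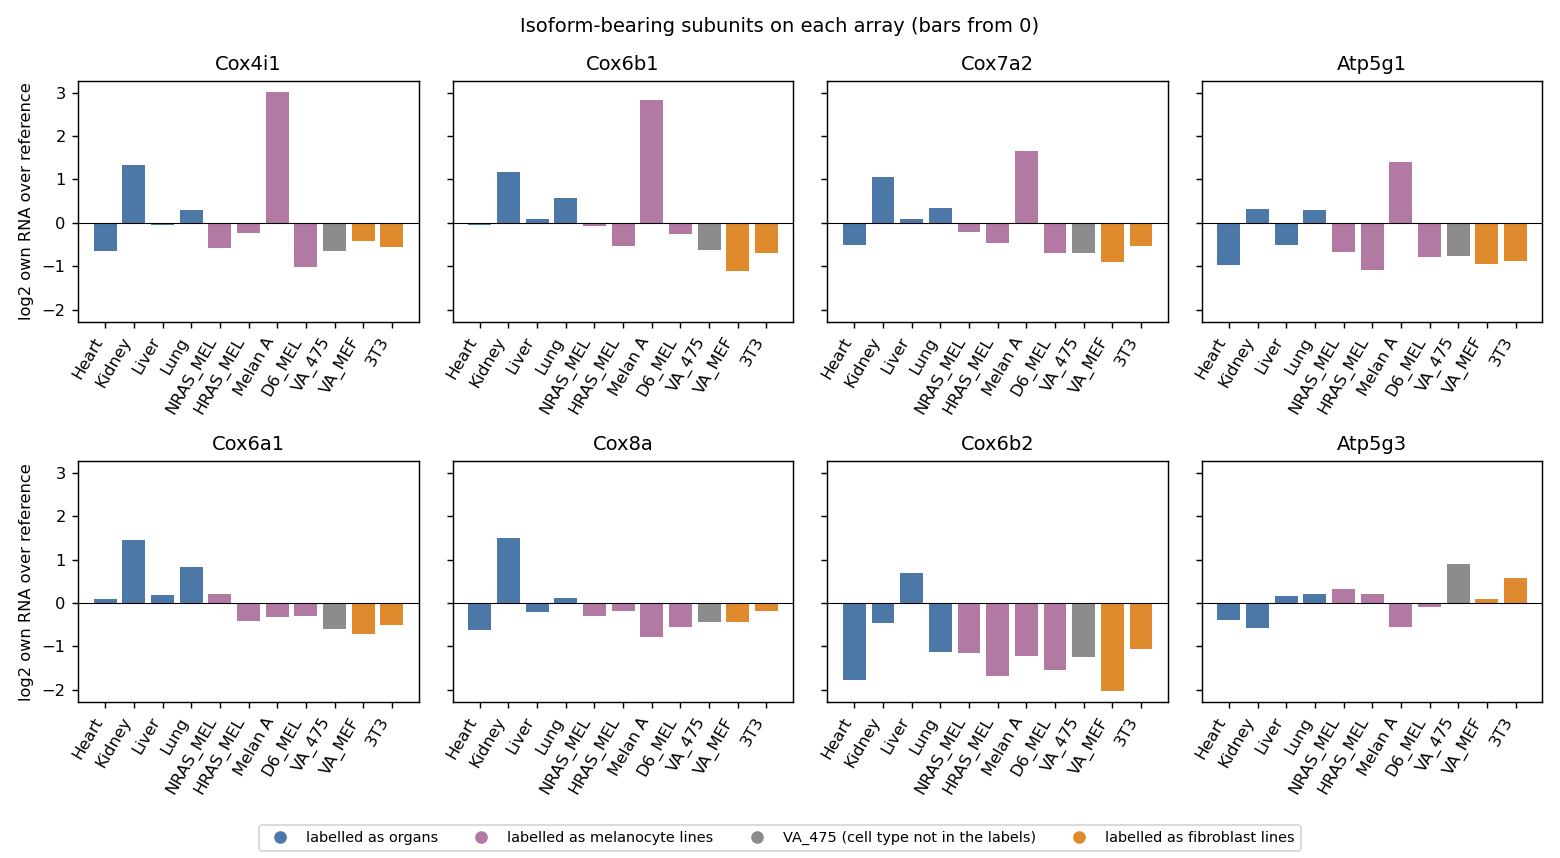
Levels of 8 subunits that have isoforms or gene copies, as log2 own RNA over reference, with bars from 0, 1 array per label. Cox4i1, Cox6b1, Cox7a2 and Atp5g1 are tallest in Melan A, while Cox6a1 (-0.33), Cox8a (-0.78), Cox6b2 (-1.21) and Atp5g3 (-0.56) are negative there.

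Cox6b2, the form of subunit 6b best known from testis, had levels of -1.77 in Heart, -0.46 in Kidney, 0.70 in Liver, -1.14 in Lung, -1.16 in NRAS_MEL, -1.67 in HRAS_MEL, -1.21 in Melan A, -1.54 in D6_MEL, -1.24 in VA_475, -2.03 in VA_MEF and -1.05 in 3T3. It was above the reference in Liver alone, the array with the lung marker, and below -1 in every line. Cox7a2l, a relative of subunit 7a that takes part in joining complexes III and IV, had levels of -0.15 in Heart, 0.039 in Kidney, -0.022 in Liver, -0.36 in Lung, -0.0027 in NRAS_MEL, -0.056 in HRAS_MEL, 0.77 in Melan A, -0.56 in D6_MEL, -0.52 in VA_475, -0.16 in VA_MEF and -0.77 in 3T3. Its range, 1.55, was the narrowest of complex IV. Of the small subunits, Cox6c stood at 2.87 in Melan A and 1.06 in Liver, and was the 1 gene of the 58 at least 1 above the median in Liver. Cox7c stood at 2.0 in Melan A and 1.05 in Kidney, and Cox7b at 1.97 in Melan A and 0.84 in Kidney, with Cox7b at 0.70 in NRAS_MEL against 0.035 in D6_MEL.

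Complex V, the ATP synthase, had medians of -0.52 in Heart, 0.86 in Kidney, -0.11 in Liver, 0.50 in Lung, -0.13 in NRAS_MEL, -0.27 in HRAS_MEL, 2.09 in Melan A, -0.65 in D6_MEL, -0.17 in VA_475, -0.70 in VA_MEF and -0.51 in 3T3. Its catalytic head is built of alpha and beta subunits around a gamma stalk. Atp5a1 (alpha) stood at -1.18 in Heart, 1.17 in Kidney, -1.23 in Liver, 0.51 in Lung, -2.48 in NRAS_MEL, -1.54 in HRAS_MEL, 3.00 in Melan A, -1.28 in D6_MEL, -2.14 in VA_475, -1.6 in VA_MEF and -1.58 in 3T3. Its range of 5.48 was the widest of all 63 genes, with the lowest value of any subunit in NRAS_MEL and in VA_475 and a value among the highest in Melan A. Atp5b (beta) had levels of -0.86 in Heart, 1.45 in Kidney, -0.91 in Liver, 0.42 in Lung, -0.49 in NRAS_MEL, -0.84 in HRAS_MEL, 2.34 in Melan A, -0.73 in D6_MEL, -0.71 in VA_475, -0.65 in VA_MEF and -0.57 in 3T3. Atp5c1 (gamma) had levels of -0.67 in Heart, 1.04 in Kidney, -0.55 in Liver, 0.53 in Lung, -1.06 in NRAS_MEL, -0.28 in HRAS_MEL, 2.83 in Melan A, -0.83 in D6_MEL, -0.81 in VA_475, -0.53 in VA_MEF and -0.56 in 3T3. In NRAS_MEL the alpha and gamma subunits were lower than in D6_MEL while the beta subunit was not.

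Atp5d, the delta subunit of the stalk, had levels of -0.54 in Heart, 1.36 in Kidney, -0.071 in Liver, 0.48 in Lung, -0.15 in NRAS_MEL, -0.26 in HRAS_MEL, 2.48 in Melan A, -0.68 in D6_MEL, -0.00048 in VA_475, -0.74 in VA_MEF and -0.36 in 3T3. The membrane ring is made of subunit c, which several genes encode with the same mature protein. Of these Atp5g1 had levels of -0.98 in Heart, 0.31 in Kidney, -0.52 in Liver, 0.30 in Lung, -0.68 in NRAS_MEL, -1.08 in HRAS_MEL, 1.40 in Melan A, -0.79 in D6_MEL, -0.76 in VA_475, -0.96 in VA_MEF and -0.89 in 3T3, and Atp5g3 had levels of -0.40 in Heart, -0.58 in Kidney, 0.17 in Liver, 0.21 in Lung, 0.33 in NRAS_MEL, 0.21 in HRAS_MEL, -0.56 in Melan A, -0.087 in D6_MEL, 0.89 in VA_475, 0.098 in VA_MEF and 0.58 in 3T3. Atp5g1 followed the complex, though its 2 probes lay 1.6 apart in the median array. Atp5g3 ran the other way, with its lowest values in Kidney and Melan A and its highest in VA_475 and 3T3, and had the narrowest range of complex V, 1.47.

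The other 10 genes of complex V all had their highest level in Melan A. Of these Atp5h stood at 2.94, Atp5j at 2.84, Atp5k at 2.83, Atp5pb at 2.10, Atp5j2 at 2.08 and Atp5e at 1.83. Atp5mpl stood at 1.79, Atp5l at 1.19, Atp5md at 0.87 and Atp5o, the connector of head and stalk, at 0.84. Atp5k was also the highest of the 58 genes in Lung (1.42) and reached 0.87 in VA_475. The 2 probes of Atp5md stood at 2.90 and -1.15 in Melan A, so its average hides a gap of 4.05.

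Promoters were read for letters known from genes of respiration, because the subunits moved together while a few did not. RefSeq's promoter table (GRCm38.p6) held 49 of the 58 genes, in 53 windows, and the 250 bases before each start were searched on both strands, counting a gene with a match in any of its windows. The NRF-1 motif, a palindrome of 10 bases spelled in capitals in the first stretch printed here, stood in 2 of 49 genes (4.08%), Atp5k and Cox6a1, and in 1.98% of the 5751 measured genes in the table. The oestrogen-related receptor motif TCAAGGTCA stood in 1 of 49 (2.04%), Atp5g3, and in 0.226% of measured genes. The ETS motif CCGGAAGT stood in 3 of 49 (6.12%), Atp5h, Uqcr11 and Uqcrh, and in 7.42%. The YY1 motif AAGATGGC stood in 1 of 49 (2.04%), Atp5j, and in 2.54%. The Sp1 motif GGGGCGGGG stood in 16.3% of the 49 genes and 22.8% of measured genes, the CCAAT box (CCAAT) in 49% and 40.7%, and the TATA box (TATAAA) in 10.2% and 8.26%. None of these letter strings contains another. The following stretches show the NRF-1 letters in a gene that followed the subunits (Atp5k) and in one that left them in Melan A (Cox6a1), and the receptor motif in the gene that ran against them (Atp5g3). Each is written 5′ to 3′ on the gene's own strand, with the motif in capitals, and Atp5g3 carries it as its reverse complement.
Atp5k: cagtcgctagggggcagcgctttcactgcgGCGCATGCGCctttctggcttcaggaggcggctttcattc
Cox6a1: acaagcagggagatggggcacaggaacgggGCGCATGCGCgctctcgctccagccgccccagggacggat
Atp5g3: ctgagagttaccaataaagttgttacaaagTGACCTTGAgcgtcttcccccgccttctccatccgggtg
All 3 lie on the minus strand, at chr5:108434410-108434479 for Atp5k, chr5:115349081-115349150 for Cox6a1 and chr2:73911340-73911408 for Atp5g3. The motif starts 50 bases before the start of Atp5k, 162 before that of Cox6a1 and 52 before that of Atp5g3. A match is a description of the letters and no evidence of binding.

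How closely each gene followed the rest was described by its Pearson correlation with the median of the other subunits over the 11 arrays. In complex I it was highest for Ndufs6 at 0.99 and lowest for Ndufa12 at 0.87. In complex II it was highest for Sdhd at 0.95 and lowest for Sdhb at 0.33. In complex III Cyc1 at 0.98 and Uqcrc1 at 0.84 were the ends. Those of complex IV were Cox7c at 0.98 and Cox8a at 0.18, and those of complex V Atp5g1 at 0.99 and Atp5g3 at -0.58. Over the 10 arrays without Melan A, Cox6a1 correlated at 0.92 and Cox8a at 0.87, whereas Atp5g3 correlated at -0.39. The correlation fell for every subunit except Cox6a1, Cox8a, Atp5g3, Cox6b2 and Atp5md. Among the larger falls were Cycs from 0.79 to 0.44, Cox7a2l from 0.76 to 0.36 and Ndufs1 from 0.88 to 0.58. Ndufs1 was then the lowest of complex I and Cox7a2l the lowest of complex IV, so part of the likeness rests on Melan A. The arrays share 1 reference RNA, and 11 arrays of different tissues give no test.

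Outside the 63 genes, the 5 whose levels correlated best with the median of the subunits over the 11 arrays were Cxcr4 (0.99), Rhot2 (0.98), Ppp1r12b (0.97), Parn (0.97) and Fbxw27 (0.97). Rhot2 encodes a mitochondrial outer membrane GTPase, Cxcr4 a chemokine receptor and Ppp1r12b a myosin phosphatase subunit. Cxcr4 stood at 3.98 in Melan A, 1.69 in Kidney and -0.54 in D6_MEL.

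Other genes of mitochondrial energy use were compared on the same arrays. The tricarboxylic acid cycle list, with 17 of 18 genes measured, had medians of -0.80 in Heart, 0.71 in Kidney, -0.59 in Liver, 0.12 in Lung, -0.81 in NRAS_MEL, -0.81 in HRAS_MEL, 2.23 in Melan A, -0.69 in D6_MEL, -0.62 in VA_475, -0.70 in VA_MEF and -0.92 in 3T3. In Melan A 16 of 17 were at least 1 above the array median, among them Mdh2 at 3.22, citrate synthase (Cs) at 2.89 and the pyruvate dehydrogenase gene Pdhb at 3.00. The fatty acid oxidation list, with 14 of 18 measured, had medians of -0.99 in Heart, 0.84 in Kidney, -0.67 in Liver, 1.65 in Lung, -1.32 in NRAS_MEL, -0.94 in HRAS_MEL, 2.56 in Melan A, -1.04 in D6_MEL, -1.33 in VA_475, -1.12 in VA_MEF and -1.43 in 3T3. All 14 were at least 1 above the median in Melan A, with Acadm at 3.62 and Hadhb at 3.29.

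The 3 lists did not rank the arrays alike. Lung, the array with liver markers, stood at 1.65 for fatty acid oxidation, above Kidney at 0.84, while for the 58 subunits Kidney at 0.80 was above Lung at 0.49. Assembly factors outside the Ndufaf group (15 of 38 measured) had a median of 0.73 in Melan A, 0.32 in Kidney and -0.084 in D6_MEL. Carriers and pores (5 of 10 measured) had 1.28 in Melan A, led by Vdac1 at 2.58, 0.32 in Kidney and -0.045 in D6_MEL. Regulators of mitochondrial genes (8 of 14 measured) had medians between -0.64 in HRAS_MEL and 0.077 in VA_MEF. In Melan A the co-activator Ppargc1b at 1.65 and Tfb2m at 1.11 were at least 1 above the array median, and Tfb1m at -1.33 was at least 1 below it. Tfb1m was higher than that in Liver alone, at -0.69, and stood between -3.55 and -2.17 on the other arrays. The factor Nrf1 stood at 0.021 in Melan A and -0.27 in Kidney.

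**Figure D3:**
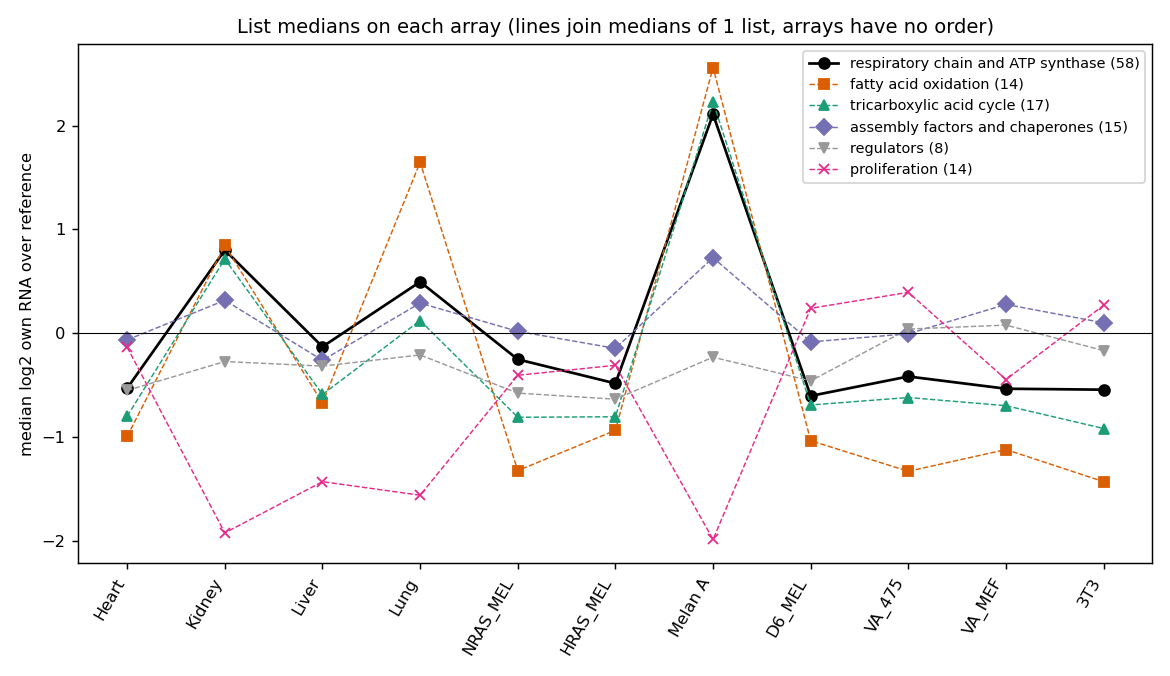
Median level of the 58 subunits and of 5 other lists on each array, as log2 own RNA over reference, with the number of measured genes in brackets; lines join the medians of a list and imply no order of arrays. Subunits, fatty acid oxidation and the tricarboxylic acid cycle peak in Melan A (2.11, 2.56 and 2.23), where the proliferation list is at -1.99.

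Proliferation markers were low on 4 arrays. Their list (14 of 16 measured) had medians of -1.99 in Melan A, -1.92 in Kidney, -1.56 in Lung and -1.43 in Liver, and between -0.45 and 0.39 on the other 7. The 2 heart markers, Nppb and Fabp3, were highest in Melan A with the subunits. Of the red blood cell list 3 of 5 genes were measured. Haemoglobin beta (Hbb-b1) stood at 0.20 in Melan A, 0.24 in Liver, -2.30 in Kidney and -3.65 in Lung, against -7.62 or lower on the other 7. Alas2 stood at -1.16, -0.33, -3.27 and -2.75 on the same 4 arrays, against -4.87 or lower on the other 7. Slc4a1 did not share this pattern, at -1.01, -1.50, -0.63 and -1.54, against -1.32 to -0.60 on the other 7. The part of proliferation, muscle or blood in the subunit levels was not tested.

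Organ-labelled arrays were tested against the melanocyte-line arrays, 4 against 4, with lines and organs standing in for replicates. Nothing passed. Limma called 0 of 63 genes at an adjusted p under 0.05, beside 0% of 7074 genes tested, and at an unadjusted p under 0.05 it found 1 of the 63 and 253 of all genes. The median difference over the 63 was -0.03, beside 0.0076 over all genes. Melan A and Kidney, the arrays of highest level, lay in opposite classes. The smallest p belonged to Cox6a1, at 0.85 ± 0.33 (SE, organ minus line), with an adjusted p of 0.96 in limma. The other 4 of smallest p on that side were Cox6b2 at 0.73 ± 0.48, Cox8a at 0.65 ± 0.43, Sdhb at 0.48 ± 0.37 and Atp5md at 0.32 ± 0.50, and none passed. On the other side stood Cox7b at -0.33 ± 0.49, Ndufc1 at -0.34 ± 0.51, Ndufa12 at -0.34 ± 0.53, Ndufs4 at -0.33 ± 0.58 and Cox7a2l at -0.16 ± 0.29, and none passed.

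Without the arrays labelled Heart and Melan A, in which the heart markers went against the label, nearly all of the 63 genes lay higher in the organs, but none passed. Of the 63, 62 were higher in Kidney, Liver and Lung than in NRAS_MEL, HRAS_MEL and D6_MEL, with a median difference of 0.89 beside 0.029 over all genes. Limma called 0 of the 63, beside 1.32% of 7048 genes, while an unadjusted p under 0.05 was found for 33 of the 63, all higher, and in either direction for 20.4% of all genes. Ndufs7 came closest, at 1.34 ± 0.25 (SE) with a limma adjusted p of 0.0609. Uqcrb at 1.10 ± 0.26, Atp5md at 1.06 ± 0.26, Ndufb10 at 1.15 ± 0.30 and Cox6c at 1.08 ± 0.30 followed, with adjusted p between 0.104 and 0.135 in limma. The SE of Atp5md rests on the average of 2 probes that disagreed. In Kidney, Liver and Lung the first stood at 1.98, -0.12 and 1.13, and the second at -1.02, -0.44 and -1.10. Atp5g3 was the 1 gene lower, at -0.22 ± 0.29.

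**Figure D4:**
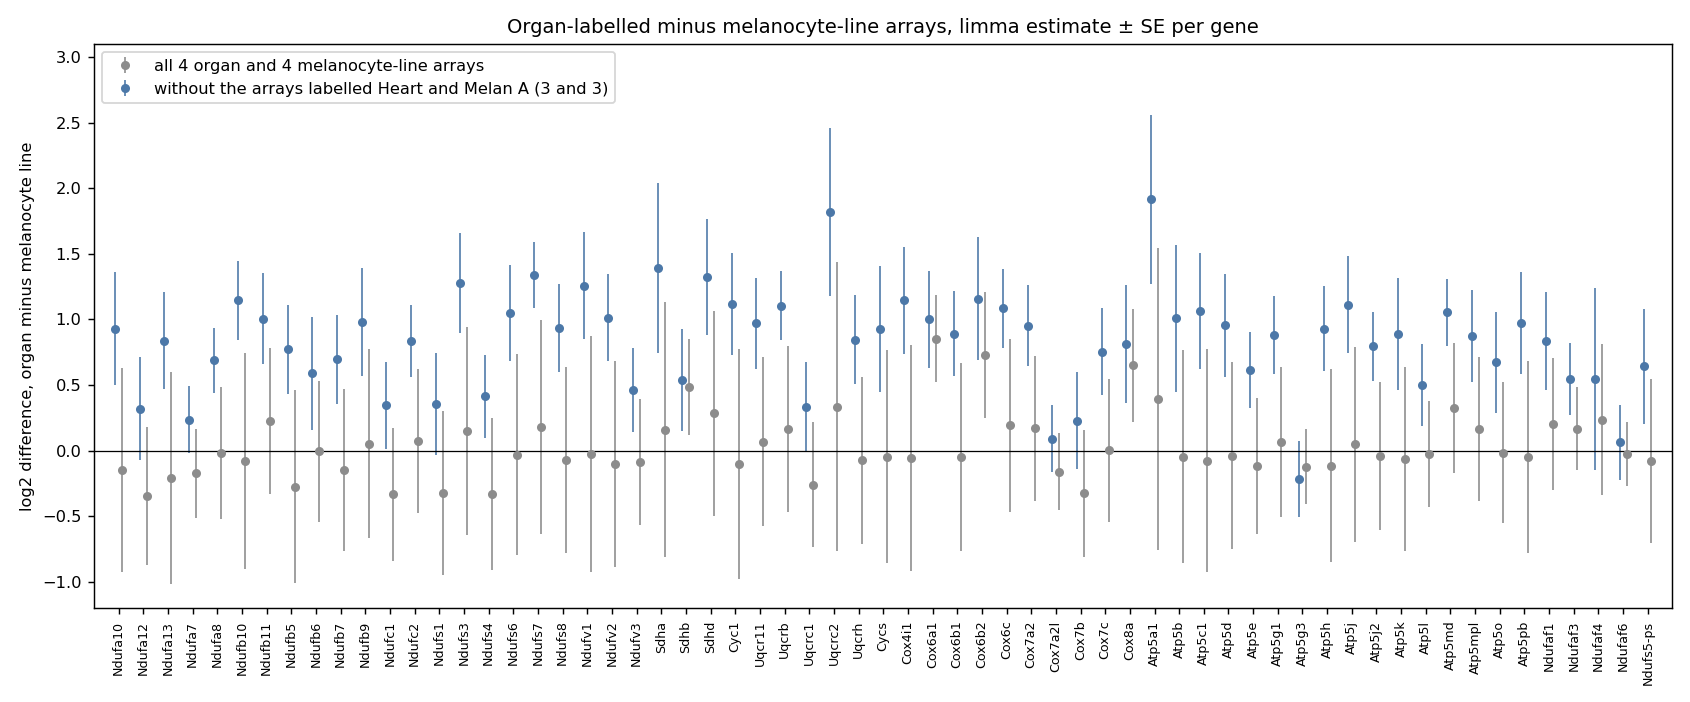
Organ-labelled minus melanocyte-line arrays for each of the 63 genes, as the limma log2 difference with its SE, from all 8 arrays (grey) and without the arrays labelled Heart and Melan A (blue). The blue values lie above 0 for 62 of 63 genes, and the grey values scatter around a median of -0.03.

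In 24 of the 58 genes all 3 of these organ arrays lay above all 3 lines, beside 14.2% of all genes, and in 0 of 58 all lay below, beside 12.9% of all genes. By complex that was 9 of 22 genes in complex I, 1 of 3 in complex II, 2 of 6 in complex III, 5 of 10 in complex IV and 7 of 16 in complex V. The count that passed depended on Liver. With Liver left out as well, 21 of the 63 genes passed at an adjusted p under 0.05 in limma (smallest adjusted p 0.0141), all of them higher, beside 9.32% of 7073 genes in either direction, and the median difference was 1.15. Without Kidney, Lung, HRAS_MEL, D6_MEL or NRAS_MEL in turn, 0 of 63 passed and the median difference was 0.66 to 1.03.

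Among single organ arrays, Kidney was at least 1 above Liver in 33 of 58 genes, beside 9.45% of all genes, and above Lung in 3, beside 7.91%. Lung was at least 1 above Liver in 12, beside 10.1%. The 3 genes at least 1 higher in Kidney than in Lung, a smaller share than over all genes, were Cox8a at 1.38, Cox4i1 at 1.04 and Atp5b at 1.03. Sdhb was the 1 gene at least 1 lower in Kidney, at -1.41, beside 470 of all 7081 genes. Kidney minus Liver was largest for Uqcrc2 at 2.60, Sdha at 2.43 and Atp5a1 at 2.40. Cox6b2 at -1.16 was the 1 gene at least 1 lower in Kidney than in Liver, beside 710 of all 7078 genes.

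The pair with RAS names, NRAS_MEL and HRAS_MEL, was tested against the pair without, Melan A and D6_MEL. Limma called 0 of 63 genes, beside 0% of 7053 genes, and at an unadjusted p under 0.05 it found 0 of the 63 and 218 of all genes. The median difference was -1.03 beside -0.015 over all genes. In this pair of pairs Melan A stood at 2.11 and D6_MEL at -0.60, so the spread inside the pair without a RAS name exceeded the difference. The smallest p values on the lower side were those of Ndufaf4 at -1.73 ± 0.71, Cycs at -2.13 ± 1.07, Atp5a1 at -2.87 ± 1.45, Uqcrc2 at -2.61 ± 1.35 and Atp5pb at -1.73 ± 0.94. On the higher side were Atp5g3 at 0.59 ± 0.35, Cox8a at 0.43 ± 0.32, Cox6a1 at 0.21 ± 0.37, Ndufaf6 at 0.17 ± 0.40 and Ndufaf3 at 0.056 ± 0.55. None passed, with adjusted p from 0.882 in limma.

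The 2 arrays without a RAS name decide the value of this test. Without D6_MEL, which leaves Melan A alone and assumes that it varies like the other lines, limma called 38 of 63 genes lower in the RAS-named pair, beside 4.76% of all genes, with a median difference of -2.36. Without Melan A it called 0, and the median difference was 0.32, so the direction turned.

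NRAS_MEL was set against D6_MEL as single arrays, with no test. The subunits lay slightly higher in NRAS_MEL, by a median of 0.48 over the 58 genes beside 0.019 over all genes. None of the 58 was at least 1 higher, beside 2.46% of all genes, and 1 was at least 1 lower, beside 4.4%. That gene was Atp5a1 at -1.20, and the assembly factor Ndufaf4 at -1.07 was the other of the 63. The complexes differed: medians were 0.59 in complex I, 0.52 in complex III, 0.46 in complex IV and 0.45 in complex V, but -0.56 in complex II, whose 3 genes were lower in NRAS_MEL in the mean of their probes. The highest were Ndufa12 at 0.99, Uqcrc1 at 0.94 and Atp5k at 0.94. For Uqcrc1 that value rests on its second probe, at 0.23 in NRAS_MEL and -1.51 in D6_MEL, while the first stood at -0.97 in NRAS_MEL and -1.11 in D6_MEL. Uqcrc2 at -0.82, Sdha at -0.69 and Sdhb at -0.56 lay on the lower side. For Sdha that direction rests on its second probe, at -1.84 in NRAS_MEL and -0.33 in D6_MEL, while the first stood at -0.33 in NRAS_MEL and -0.46 in D6_MEL.

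HRAS_MEL minus D6_MEL had a median of 0.29 over the 58 genes beside -0.012 over all genes. Ndufb11 at 1.05 was the 1 subunit at least 1 higher, beside 5.23% of all genes, and Cycs at -1.19 the 1 at least 1 lower, beside 5.91%. Only the second probe of Cycs was at least 1 apart, at -1.72 in HRAS_MEL and -0.022 in D6_MEL. The first stood at -0.95 in HRAS_MEL and -0.27 in D6_MEL. Ndufaf4 at -2.95 was the lowest of the 63. Medians by complex were 0.29 in complex I, -0.12 in complex II, 0.19 in complex III, 0.051 in complex IV and 0.37 in complex V. Atp5l at 0.99, Atp5j at 0.89 and Cox4i1 at 0.78 were higher in HRAS_MEL, and Ndufb6 at -0.70 and Cox6c at -0.62 lower. The 2 comparisons share the D6_MEL array, which had the lowest median of the 11 arrays, so their common direction is not independent.

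**Figure D5:**
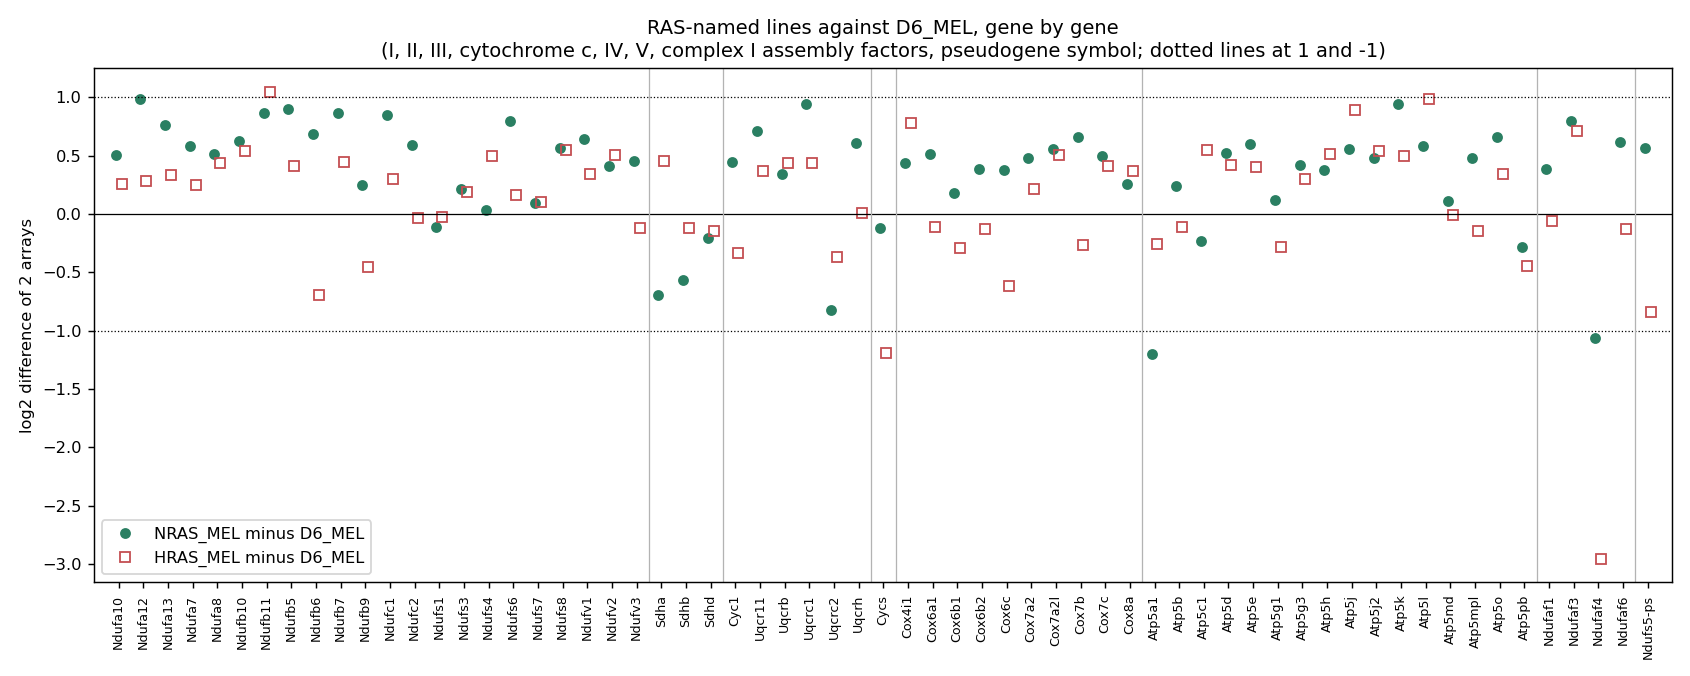
Log2 difference of NRAS_MEL (filled circles) and HRAS_MEL (open squares) from D6_MEL for each of the 63 genes, grouped by complex, 1 array per label and no test; dotted lines mark 1 and -1. Most points lie between the dotted lines, and Ndufaf4 (-1.07 and -2.95), Atp5a1 in NRAS_MEL (-1.20) and Cycs in HRAS_MEL (-1.19) lie below.

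With Heart in the place of D6_MEL, chosen for their likeness in earlier results, the medians were 0.30 for NRAS_MEL and 0.14 for HRAS_MEL. Heart itself lay 0.18 above D6_MEL in the median, with single genes from -0.38 to 0.86, and Ndufaf4 at -1.25. The low levels of Atp5a1 in NRAS_MEL (-1.30 against Heart) and of Cycs in HRAS_MEL (-1.18) stood in both settings. Heart minus D6_MEL was only 0.10 for Atp5a1 and -0.012 for Cycs. Of all 7076 genes, 61 were at least 1 higher in Heart and 87 at least 1 lower. The 2 settings are therefore not independent. Against Heart, Sdhb at -1.42 was the lowest gene in NRAS_MEL and Ndufa12 stood at 1.02, and Ndufaf4 stood at -1.70 in HRAS_MEL. The low level of Ndufaf4 in NRAS_MEL did not stand in both settings, at 0.19 against Heart, since D6_MEL was the high array.

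Set directly against each other, NRAS_MEL minus HRAS_MEL had a median of 0.22 over the 58 genes. Ndufb6 at 1.38 and Cycs at 1.07 were at least 1 higher in NRAS_MEL, beside 4.27% of all genes, and Sdha at -1.15 was at least 1 lower, beside 5.08%. Cycs and Sdha were at least 1 apart by their second probes alone. For Cycs that probe stood at -0.082 in NRAS_MEL and -1.72 in HRAS_MEL, and the first at -0.45 and -0.95. For Sdha the second stood at -1.84 in NRAS_MEL and 0.027 in HRAS_MEL, and the first at -0.33 and 0.088. Outside the 58, Ndufaf4 at 1.89 and Ndufs5-ps at 1.40 were higher in NRAS_MEL. Complex III stood at 0.43, complex IV at 0.36, complex I at 0.32, complex V at 0.12 and complex II at -0.44.

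Melan A and D6_MEL, the pair without a RAS name, had the highest and the lowest subunit median of the 4 melanocyte-line arrays. Of the 58 genes, 53 were at least 1 higher in Melan A, beside 14.6% of all genes, and 0 were at least 1 lower, beside 12.8%. The median difference was 2.74. Atp5a1 at 4.28, Ndufv1 at 4.09, Cox4i1 at 4.03 and Uqcrc2 at 4.03 led. The 5 subunits under 1 were Sdhb at 0.54, Cox6b2 at 0.33, Cox6a1 at -0.022, Cox8a at -0.23 and Atp5g3 at -0.48. The heart markers stood at 4.42 (Nppb) and 3.13 (Fabp3) in Melan A and at 0.36 and -1.91 in D6_MEL, and their part in these differences was not tested.

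Among the remaining arrays, VA_475 minus 3T3 had a median of 0.12, with Sdhb at 1.36 and Uqcrh at 1.09 at least 1 higher, beside 3.18% of all genes, and 0 of 58 at least 1 lower, beside 4.04%. Ndufaf4 was higher too, at 1.01. VA_MEF minus 3T3 had a median of -0.0022. Cycs at 1.54, Sdhb at 1.36 and Ndufb9 at 1.05 were at least 1 higher, beside 5.87% of all genes, and Uqcr11 at -1.11 and Atp5k at -1.08 at least 1 lower, beside 7.89%. In both comparisons the low value of Sdhb in 3T3, -1.52, sets its difference.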

How the data were processed

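The authors deposited log ratios of 2 channels, taken here as log2, for 15247 probes (15170 to 15210 values per array). Per the labels' protocols RNA was extracted with Trizol and the dyes were incorporated during reverse transcription. The sources used here give neither the log base nor the background correction or normalization. Deposited column medians lay between -0.0347 and 0.0296 and SDs between 0.733 and 1.02, so columns were nearly centred by an unstated step. Spot intensities were not used here, and precision is limited by the small number of arrays. The number of columns that belong to no sample was 0.

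Signs were turned, the median of each array was subtracted, and probes with 1 symbol in the platform annotation (9600; 214 had several, 5433 were not listed) were averaged into 7114 genes. RefSeq (GRCm38.p6) held 9492 of these probes' genes and changed 0 symbols. Of the 63 genes, 15 had several probes, and all had a value on 11 arrays; 3 further probes shared between a member symbol and another were left out. Limma 3.58.1 (R 4.3.3) was fitted across all genes with lmFit and eBayes and Benjamini-Hochberg adjustment (threshold 0.05), for genes with at least 3 values per class or, for the RAS names, a value on all 4 arrays; the steps were tested on simulated data. Organs and lines stand in for replicates, so the p-values rest on how much these differ among themselves. Single arrays were compared by difference, counting genes at least 1 apart. Alternatives were quantile normalization, 1 probe per gene, complete genes, another threshold, the fibroblast arrays as a class of their own, and left-out arrays.

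The members, lists and tests were chosen with earlier results of these data known. Genes with a value in every array are the core subunits, those with isoforms, and Ndufaf4, chosen after its values were seen; also named are the widest and narrowest range per complex, the members at least 1 apart, the 5 of smallest p in each direction and the genes of highest and lowest correlation. Accessory subunits, genes of other lists and the organ pairs were singled out after their values were seen. Python 3.11.15 was used for the rest.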

Additional observations from a re-analysis of the deposited data

Results flagged for a closer look

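Within the 4 melanocyte-line arrays and the 4 organ arrays, the medians of the complexes and the 26 core and isoform-bearing genes were examined for 1 array lying far from the other 3, by Dixon's criterion, which chance meets in about 1 of 20 groups. Of 64 groups examined, 13 met it, all in the melanocyte lines with Melan A as the high array, and 0 among the organs. The median of the 58 subunits was 2.11 in Melan A, against -0.60 to -0.25 in the other 3 lines, and that of complex III was 2.20, against -0.81 to -0.38. In complex I the genes were Ndufs1 at 2.14, Ndufs3 at 2.22, Ndufs7 at 2.55, Ndufv1 at 2.74 and Ndufv2 at 2.31. Ndufs7 stood furthest apart for its range, since the other 3 lines lay between -1.13 and -1.03. The others were Sdhd at 1.99, Uqcrc2 at 3.34, Cox6b1 at 2.83, Atp5b at 2.34, Atp5d at 2.48 and Atp5g1 at 1.40. The groups share arrays and genes that move together, so the 13 are not separate pieces of evidence. The heart markers Nppb and Fabp3 were highest on the same array, and their part was not tested.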

How the results depend on the processing

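Among the alternative values for the main counts and medians, 105 kept within the spread or within 1.5 times the count reported. The other 28 did not, and the cause was not tested except where the setting itself gives it. For the limma tests the spread was the pooled SD of the subunit median, which is wide. Organ minus line was counted as kept although its median moved from -0.03 to 0.66 without Melan A. The RAS-name median turned from -1.03 to 0.32 without Melan A, beside a spread of 1.36. A count that stayed at 0 was also counted as kept, so the 105 do not show stability. A 1.5-fold threshold, which admits more genes by construction, gave 18 higher and 3 lower subunits for NRAS_MEL minus D6_MEL, 4 and 3 for HRAS_MEL minus D6_MEL, 12 and 3 for NRAS_MEL minus HRAS_MEL, and 7 and 1 for VA_475 minus 3T3, and 42 subunits above the median in Kidney. Quantile normalization gave 6 higher for NRAS_MEL, 3 higher for HRAS_MEL (both against D6_MEL) and 14 in Kidney, and moved the median of the 63 genes in organ minus line to 0.11, with 49 of 63 positive where 25 were before. Heart in place of D6_MEL gave 1 higher and 2 lower for NRAS_MEL, beside 282 and 370 of all 7070 genes. It gave 0 higher for HRAS_MEL, beside 384 of all 7077 genes. With 1 probe per gene, 0 were lower in HRAS_MEL than in D6_MEL, and 1 was higher and 0 lower in NRAS_MEL minus HRAS_MEL. The share of all genes was not computed for the 1.5-fold threshold, quantile normalization or 1 probe per gene. Whether the subunit counts under these 3 settings exceed that share was therefore not tested.

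In organ minus line, leaving out 1 array gave 0 to 5 called genes (5 without Heart), and leaving out both Heart and Melan A gave 93; the median of the 63 genes was 0.66 without Melan A. With both out already, leaving out 1 more array, which was chosen after seeing the data, gave 0 to 659 called genes and 0 to 21 called members (both highest without Liver), with 0 genes without D6_MEL or NRAS_MEL, 23 without Kidney and 27 without HRAS_MEL. For the RAS names it gave 0 to 441 called genes and 0 to 38 members, both highest without D6_MEL. Single genes that passed only then were Ndufs7, Uqcrb, Atp5md and Ndufb10 among those named (without Liver) and Cycs, Atp5a1, Uqcrc2 and Atp5pb (without D6_MEL). No paired analysis was possible, since each label had 1 array and the organs and lines have no partners. Differences measured by several probes of 1 gene had a pooled SD of 0.41 to 0.75 (log2) in the single-array comparisons, the only measure of error these hold.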
